A study of Homo sapiens with 6 samples.

Results

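The stress keratins KRT6A, KRT6B, KRT6C, KRT16, KRT17 and KRT75 are 6 of the 48644 genes in the deposited table, and they were chosen by name as a keratin group after the changes of KRT6A, KRT6B and KRT75 with hairpin induction were known. The cells were KYSE70, a line established from a human squamous carcinoma of the esophagus. Each of its 2 derived lines carried a hairpin that doxycycline switches on, aimed at SOX2 or at TP63, the genes of transcription factors that basal cells of squamous epithelium depend on. Poly(A) RNA was sequenced in 6 libraries: 2 of the shSOX2 line on day 4 of doxycycline at 50 ng/ml against 1 untreated library of that line on day 0, and 2 of the shTP63 line on day 4 against 1 untreated library of that line on day 0. All 6 libraries therefore carry a Tet-On hairpin construct (pLKO-Tet-On-shSOX2 or pLKO-Tet-On-shTP63), and no library of cells with doxycycline and a hairpin against neither gene was analysed here. A change between day 0 and day 4 thus holds the hairpin, doxycycline and the days in culture, which cannot be told apart. The numbers 1 and 2 in the titles were taken as replicates but may number hairpins, both day 0 libraries carry the number 2, and the labels do not say whether a line is 1 clone or a pool. Separate cultures are not stated, so each p-value reflects the spread among these libraries alone, and that spread may be technical.

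Keratins build the intermediate filaments of epithelial cells as obligate pairs of a type I and a type II chain. KRT6A, KRT6B and KRT6C are type II chains whose usual partners are the type I chains KRT16 and KRT17. They are called stress or activation keratins because epidermal keratinocytes switch them on at wound edges and in hyperproliferative disease, while the lining of the mouth and esophagus and squamous carcinomas can express them constitutively. KRT75 is a type II chain best known from the companion layer of the hair follicle. In the RefSeq gene order KRT75, KRT6B, KRT6C, KRT6A and KRT5 are consecutive coding genes on chromosome 12, and KRT14, KRT16 and KRT17 are consecutive on chromosome 17.

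The deposited values were read as log2(RPKM + 1) after quantile normalization between libraries, so a value is a level per transcript length, and RPKM below means 2 to the power of the value, minus 1. Read depth is unknown. The uninduced shTP63 library had 16167 genes above 0, against 21530 to 23509 in the other 5, and it is the only day 0 library of its line. TP63 stood at 2.11 and 2.26 in induced shTP63 cells, against 3.99 in uninduced ones (log2 change -1.81 ± 0.32, limma SE, adjusted p = 0.131). SOX2 stood at 4.67 and 5.65 in induced shSOX2 cells, against 6.25 in uninduced ones (log2 change -1.10 ± 0.45, limma adjusted p = 0.469). Of 8 squamous markers, 6 or 7 were at an RPKM of at least 1 in each library, with KRT5 between 8.39 and 11.01 on the log2 scale, while the basal keratin KRT14 was between 0.66 and 2.70. No leukocyte or endothelial marker of those listed reached an RPKM of 1 in any library.

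KRT6A was the most abundant of the 6 genes in every library and ranked among the leading transcripts of uninduced cells. It stood at 6.64 and 7.13 on the log2 scale in the 2 induced shSOX2 libraries, against 9.61 in the uninduced one. Its value in the shTP63 line was 6.58 and 7.74 in induced cells, against 10.31 in uninduced cells. Both uninduced libraries were thus above all 4 induced ones. On the linear scale this was 98.9 and 139 RPKM in induced shSOX2 cells, against 782 RPKM in uninduced ones. It was 94.8 and 213 RPKM in induced shTP63 cells, against 1271 RPKM in uninduced ones. KRT6A ranked 178 and 118 among all genes in the induced shSOX2 libraries and 16 in the uninduced library. Its rank was 188 and 65 in induced shTP63 libraries and 10 in the uninduced one. The fitted log2 changes were -2.73 ± 0.50 in the shSOX2 line and -3.15 ± 0.50 in the shTP63 line (limma SE, day 4 n = 2, day 0 n = 1). No p is given for day 4 against day 0 in any of the 6 genes, because the group was chosen with these changes in view.

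KRT6C, the next most abundant, had the same order of libraries. Its value was 3.52 and 3.76 in induced shSOX2 cells, against 6.26 in uninduced cells, a log2 change of -2.62 ± 0.55. In induced shTP63 cells it was 3.43 and 4.78, against 6.67 in uninduced cells, a log2 change of -2.56 ± 0.55. KRT6B, the least abundant keratin 6 gene, was at 2.64 and 2.66 in induced shSOX2 cells, against 5.25 in uninduced cells, a log2 change of -2.60 ± 0.55. It was at 2.38 and 3.77 in induced shTP63 cells, against 5.42 in uninduced cells, a log2 change of -2.35 ± 0.55. The day 0 and day 4 values did not overlap for any keratin 6 gene, within either line or across the lines. Of all tested genes, 40.2% were below day 0 in both induced shSOX2 libraries and 38.5% in both induced shTP63 libraries. The share with both day 0 libraries above every day 4 library was not computed, so the separation across the lines has no background. The induced shTP63 replicates lay further apart than the induced shSOX2 replicates for all 3 genes. In shTP63 replicate 1 KRT6B was at 10.1% of its day 0 RPKM and in replicate 2 at 30.2%, while in shSOX2 replicates 1 and 2 it was at 14.1% and 14.3%.

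**Figure D1:**
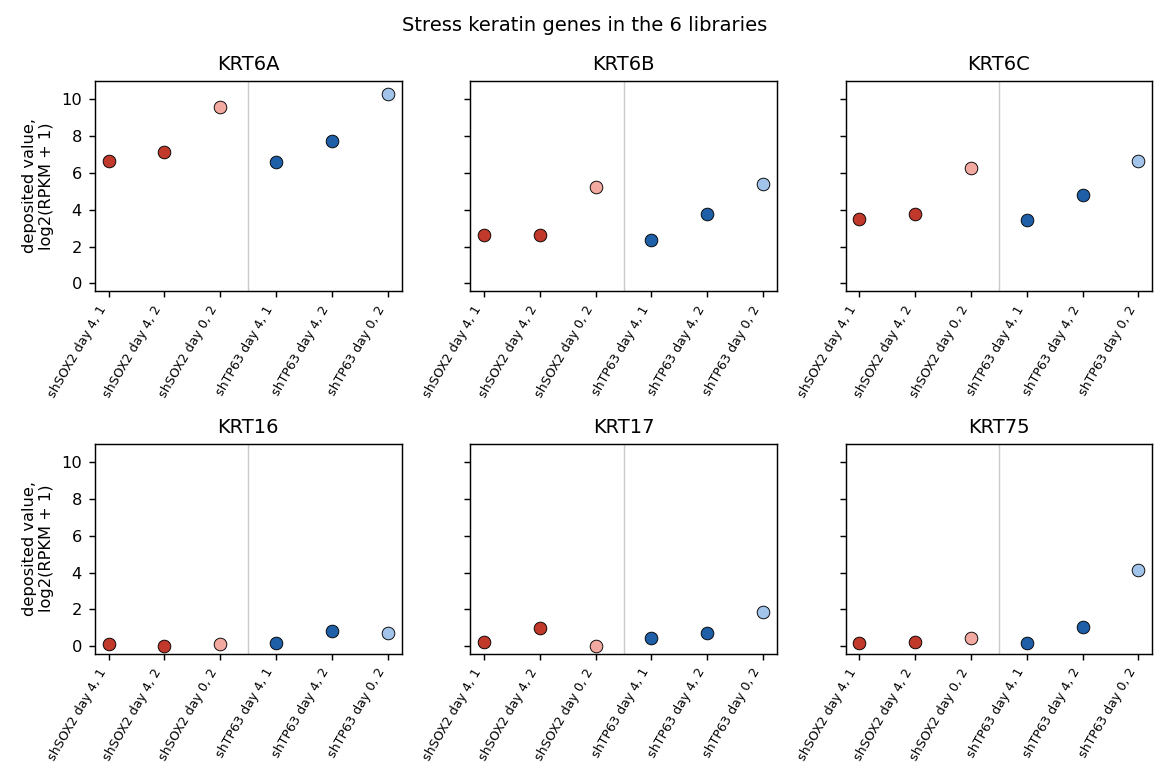
Deposited values, log2(RPKM + 1), of the 6 stress keratin genes, 1 point per library. The number after the day is the number in the title. Dark points are day 4 of doxycycline and pale points day 0 of the same line. KRT6A, KRT6B and KRT6C are highest in the day 0 library of each line, KRT75 reaches 4.16 in the uninduced shTP63 library alone, and KRT16 and KRT17 lie near the floor.

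KRT75 had a different pattern from the keratin 6 genes. It stood at 0.15 and 1.04 in induced shTP63 cells, against 4.16 in uninduced shTP63 cells, a log2 change of -3.56 ± 0.39. In induced shSOX2 cells it was at 0.19 and 0.20, against 0.46 in uninduced shSOX2 cells, a log2 change of -0.27 ± 0.39. In RPKM this was 0.109 and 1.06 in induced shTP63 cells, against 16.8 in uninduced ones, whereas all 3 shSOX2 libraries were at or below 0.378. The high level of KRT75 was thus seen in 1 of the 6 libraries, the one with the fewest genes above 0, and it lay 3.11 log2 units above the next library. Among the 10536 tested genes, 53 (0.503%) were at least 2-fold higher in that library than in every other. With the uninduced shSOX2 library as the control in its place, a setting chosen after seeing the data, the log2 change of KRT75 in induced shTP63 cells was 0.13. With both day 0 libraries as the control it was -1.71, and that of KRT75 in induced shSOX2 cells -2.11. With a pseudocount of 5 in place of 1, the KRT75 change in the shTP63 line was -1.97. The 6 libraries hold no other uninduced shTP63 sample, so line, culture and library cannot be told apart in this value.

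KRT16 and KRT17, the type I partners of keratin 6, were near the floor. KRT16 was at 0.13 and 0 in induced shSOX2 cells, against 0.10 in uninduced cells. It was at 0.15 and 0.84 in induced shTP63 cells, against 0.73 in uninduced cells. Induced and uninduced values overlapped in both lines. KRT17 was at 0.24 and 0.99 in induced shSOX2 cells and was listed at 0 in the uninduced library. KRT17 in the shTP63 line was at 0.45 and 0.74 in induced cells, against 1.83 in uninduced cells. The direction of KRT17 therefore differed by line, at levels of at most 2.56 RPKM. Neither gene reached the mean of 1 RPKM required for testing, so 4 of the 6 members were tested.

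Type I chains were scarce as a whole in these values. The 28 type I keratin genes summed to 82.5 and 66.3 RPKM in induced shSOX2 cells, against 97.9 RPKM in uninduced ones. They summed to 147 and 120 RPKM in induced shTP63 cells, against 126 RPKM in uninduced ones. The 25 type II genes summed to 983 and 570 RPKM in induced shSOX2 cells, against 2002 RPKM in uninduced ones, and to 1071 and 2485 RPKM in induced shTP63 cells, against 3106 RPKM in uninduced ones. KRT16 and KRT17 together made up between 0.0736% and 2.55% of the type I sum. Transcript pools of the 2 chain types were thus far from equal in these values, in all 6 libraries.

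Sequence sharing bears on how these values can be read. In the longest coding transcript of each gene in GENCODE 29, the windows of 50 bases that also occur in a transcript of another gene were counted. They were 39.1% for KRT6A, 47.1% for KRT6B and 53.6% for KRT6C, nearly all shared within the keratin 6 genes. KRT6C shared 44.6% of its windows with KRT6B and 35.5% with KRT6A. For KRT16 the shared windows were 22.0%, mostly with KRT16P3, KRT14 and the pseudogenes KRT16P1 and KRT16P2, and for KRT17 they were 16.0%, mostly with KRT17 pseudogenes. KRT75 shared 0.044% of its windows, so exact matches of 50 bases could hardly mix its values with those of a neighbour. Shorter matches and matches with mismatches were not counted. Read length and the handling of reads with several matches are not stated in the labels, so the split among KRT6A, KRT6B and KRT6C is uncertain. Among other type I genes, KRT18 shared 28.9% of its windows and KRT14 23.8%, while KRT13 shared 1.03% and KRT15 0.328%. The part of shared sequence in the low values of KRT16 and KRT17, and in the type I sum, was not tested. KRT16P2 had 1.70 and 0.518 RPKM in induced shSOX2 libraries, against 0.208 RPKM in the uninduced one, above KRT16 in each of them, and this pseudogene is named after its values were seen.

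**Figure D2:**
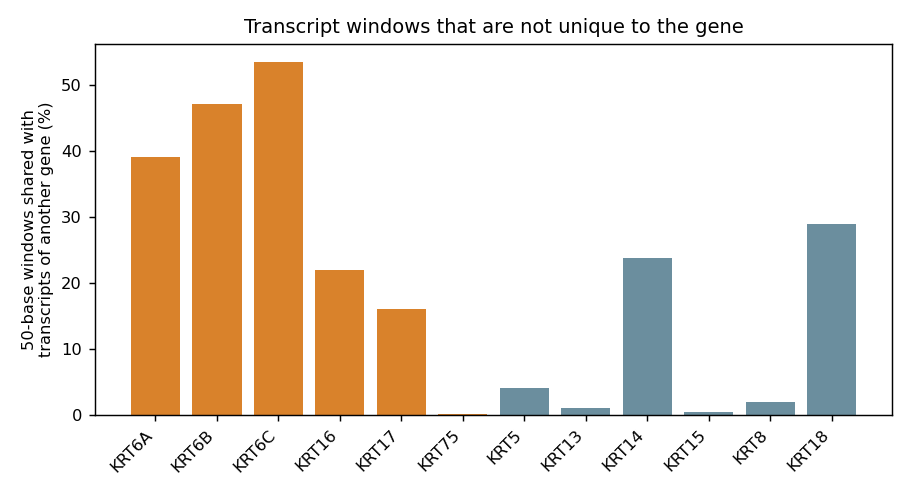
Share of 50-base windows of each gene's longest coding transcript that also occur in a transcript of another gene (percent), for the 6 stress keratins (orange) and 6 other keratins (grey-blue). The keratin 6 genes are between 39.1% and 53.6%, and KRT75 is at 0.044%.

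The sum of the keratin 6 genes does not depend on the uncertain split if each read was counted once. Whether it was is not stated. The sum was 115 and 157 RPKM in induced shSOX2 cells, against 895 RPKM in uninduced cells. It was 109 and 253 RPKM in induced shTP63 cells, against 1414 RPKM in uninduced cells. Of the day 0 sum, 12.8% and 17.6% remained in replicates 1 and 2 of induced shSOX2 cells, and 7.69% and 17.9% in those of induced shTP63 cells. The make-up of the sum moved little: KRT6A held 84.5% to 89.9% of it, KRT6C 7.12% to 10.5% and KRT6B 2.96% to 5.00% over the 6 libraries. Across the 6 libraries the Pearson r of KRT6A was 0.984 with KRT6B and 0.993 with KRT6C, a description only, since the 3 genes share sequence and libraries. With KRT75 it was 0.757, with KRT17 0.426 and with KRT16 0.432.

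Relative to KRT5, the neighbour of KRT6A on chromosome 12 and the main basal type II chain, KRT6A was lower in all 4 induced libraries than in the uninduced library of the line. KRT6A minus KRT5 within a library was -2.97 and -1.26 on the log2 scale in induced shSOX2 cells, against -0.14 in uninduced cells. It was -3.03 and -3.26 in induced shTP63 cells, against -0.20 in uninduced cells. Uninduced cells thus held KRT6A at nearly the level of KRT5, and no induced library did. As a share of all type II keratin RPKM, keratin 6 was 11.7% and 27.6% in induced shSOX2 cells, against 44.7% in uninduced ones. The share was 10.1% and 10.2% in induced shTP63 cells, against 45.5% in uninduced ones. KRT5 itself was at 9.61 and 8.39 in induced shSOX2 cells, against 9.75 in uninduced cells (log2 change -0.75, limma adjusted p = 0.697). In induced shTP63 cells it was at 9.61 and 11.01, against 10.51 in uninduced cells (log2 change -0.20, limma adjusted p = 0.912). A ratio within a library shows unequal change of the pair, not which of them changed.

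**Figure D3:**
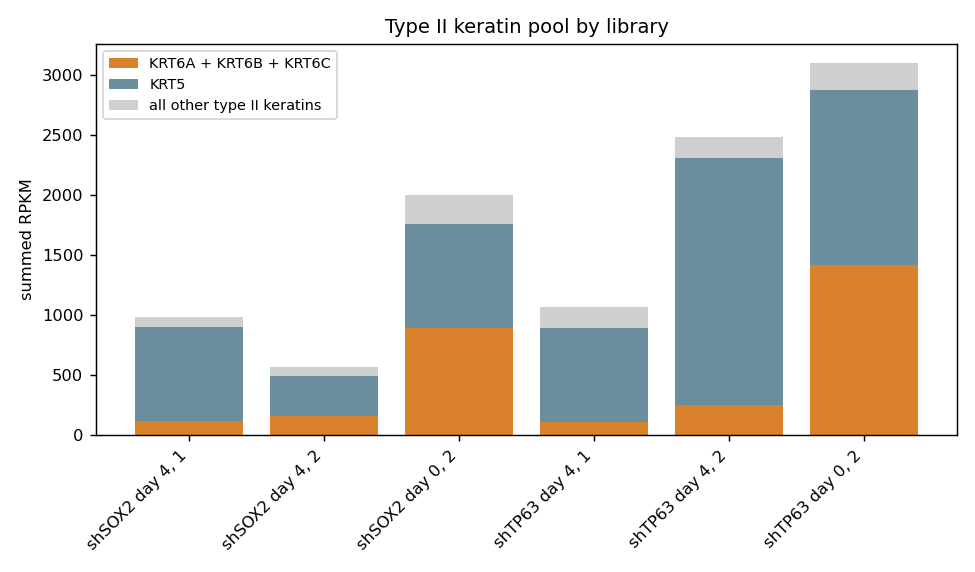
Summed RPKM of the type II keratin genes in each library, split into KRT6A, KRT6B and KRT6C (orange), KRT5 (grey-blue) and all others (grey). The number after the day is the number in the title. The keratin 6 layer is 895 and 1414 RPKM in the day 0 libraries and between 109 and 253 RPKM in the day 4 libraries, while KRT5 has no common direction.

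By size, KRT6A, KRT6B and KRT6C were each at least 2-fold lower than day 0 in both induced shSOX2 libraries, and in that line 104 of the 10536 tested genes (0.987%) were. In the shTP63 line these 3 and KRT75 were at least 2-fold lower in both induced libraries, as were 297 tested genes (2.82%). No member was at least 2-fold higher in both induced libraries of a line, where 2.48% of tested genes were in the shSOX2 line and 3.05% in the shTP63 line. The 3 keratin 6 genes were among 32 tested genes (0.304%) that were at least 2-fold lower in all 4 day 4 libraries than in the day 0 library of the line. At least 4-fold lower in both induced shSOX2 libraries were 7 tested genes (0.0664%), 3 of them the keratin 6 genes. In the shTP63 line KRT6A and KRT75 met that size in both libraries, as 0.275% of tested genes did, while KRT6B and KRT6C did not, at -1.65 and -1.88 log2 units in replicate 2. These counts describe the values on which the genes were chosen.

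Between the induced lines the stress keratins were tested, because they had not been chosen on that contrast. Limma passed 0 of the 4 tested members, while 80 of 10536 genes passed (0.759%), 26 higher (0.247%) and 54 lower (0.513%) in induced shTP63 cells. At an unadjusted p under 0.05 were 0 of the 4 members and 23% of tested genes. Leaving out 1 library moved the count of 80 to 0 (either induced shSOX2 library) or 324 (induced shTP63 replicate 1). KRT6A differed by a log2 value of 0.27 ± 0.41, shTP63 minus shSOX2 (limma adjusted p = 0.707). For KRT6C the difference was 0.46 ± 0.45 (limma adjusted p = 0.548), for KRT6B 0.42 ± 0.45 (0.582) and for KRT75 0.40 ± 0.32 (0.463). KRT75 met the filter only through the uninduced shTP63 library (16.8 RPKM), which is not part of this contrast. Its induced values, between 0.109 and 1.06 RPKM, were near the floor, so its test says little. The values of the 2 groups overlapped for all 4 genes, whereas they did not overlap for 57.1% of the tested genes. Without shTP63 day 4 replicate 2 all 4 differences changed sign, to between -0.31 and -0.05, and none passed. That none passed does not show that the levels were equal. The difference of the responses, shTP63 minus shSOX2, was -0.43 ± 0.70 for KRT6A, 0.25 ± 0.77 for KRT6B, 0.06 ± 0.77 for KRT6C and -3.29 ± 0.55 for KRT75, the last resting on the uninduced shTP63 library and at -1.91 with a pseudocount of 5. Limma passed 0 of 10536 genes for this difference, with 4.55% at an unadjusted p under 0.05.

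Between the uninduced lines, with 1 library each and so no test, KRT75 had the largest difference of the 6 members, 3.69 log2 units, shTP63 minus shSOX2. KRT17 was higher by 1.83, KRT6A by 0.70, KRT16 by 0.63, KRT6C by 0.40 and KRT6B by 0.17. All 6 members were thus higher in the uninduced shTP63 library, and at least 2-fold for KRT75 and KRT17. Of the tested genes 4.62% were at least 2-fold apart between these libraries, and 1.98% at least 2-fold higher in shTP63. The share of genes higher there by any amount was not computed, so the count of 6 members has no background. KRT16 and KRT17 had a mean between 0.05 and 1 RPKM. Of all genes with such a mean, 24.1% had their highest value in the uninduced shTP63 library, more than in any other library. Of the tested genes 19.05% did.

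The promoter of KRT75 is shown because this gene had the widest range of the 6, 4.01 log2 units, and 1 of the 6 members matched the promoter table by symbol. It is given from RefSeq (GRCh38.p14, chr12:52434372-52434621, minus strand), 5′ to 3′, as the 250 bases before the start of the gene.
KRT75: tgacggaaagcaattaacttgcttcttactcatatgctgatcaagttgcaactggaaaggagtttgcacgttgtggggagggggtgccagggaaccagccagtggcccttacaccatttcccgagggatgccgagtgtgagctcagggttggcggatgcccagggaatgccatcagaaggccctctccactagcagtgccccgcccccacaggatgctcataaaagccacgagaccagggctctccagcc
Motif matches on either strand would stand in capitals, and there were none. The letters searched were TGANTCA for AP-1 sites, TGACNNNGC for the core of antioxidant response elements, ACAAT for SOX factors and TATAAA for the TATA box. Of 35116 promoter windows of the same length, 6.57% held the AP-1 letters, 10.9% those of the antioxidant element, 24.6% the SOX letters and 10.7% the TATA letters.

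The other 47 keratin genes had 9 tested members, and none passed limma in any contrast. In the shSOX2 line their median log2 change was -0.14, against -0.05 over all tested genes, where 0 of 10536 genes passed (0%) and 1094 (10.4%) had an unadjusted p under 0.05. Their median in the shTP63 line was -0.23, against 0.00 over all tested genes, where 2 genes passed (0.019%), 1 higher and 1 lower (0.00949% each), and 14.6% had an unadjusted p under 0.05. The simple-epithelium pair was lowest in the shSOX2 line, KRT8 with a log2 change of -1.61 ± 0.32 (limma adjusted p = 0.309) and KRT18 with -1.51 ± 0.39 (0.349). There KRT8 was at 6.41 and 6.20 in induced cells, against 7.92 in uninduced ones. KRT18 in the shTP63 line had a log2 change of -0.88 ± 0.39 (limma adjusted p = 0.353), with 5.50 and 4.87 in induced cells, against 6.06 in uninduced ones. The mucosal keratins lay on the other side: KRT13 had a log2 change of 0.96 ± 0.40 in the shSOX2 line (limma adjusted p = 0.465), and KRT4, its usual partner, one of 1.80 ± 0.61 in the shTP63 line (0.253). KRT15, a basal type I chain, had a log2 change of 0.81 ± 0.55 in the shTP63 line (limma adjusted p = 0.540). It was at 2.63 in replicate 1 and 4.08 in replicate 2 of induced cells, against 2.55 in uninduced ones. The change thus rested on replicate 2. KRT8 and KRT18 were at least 2-fold lower in both induced shSOX2 libraries, as were 0.987% of tested genes. No tested keratin outside the stress group was so in both lines, where only 0.304% of tested genes were.

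**Figure D4:**
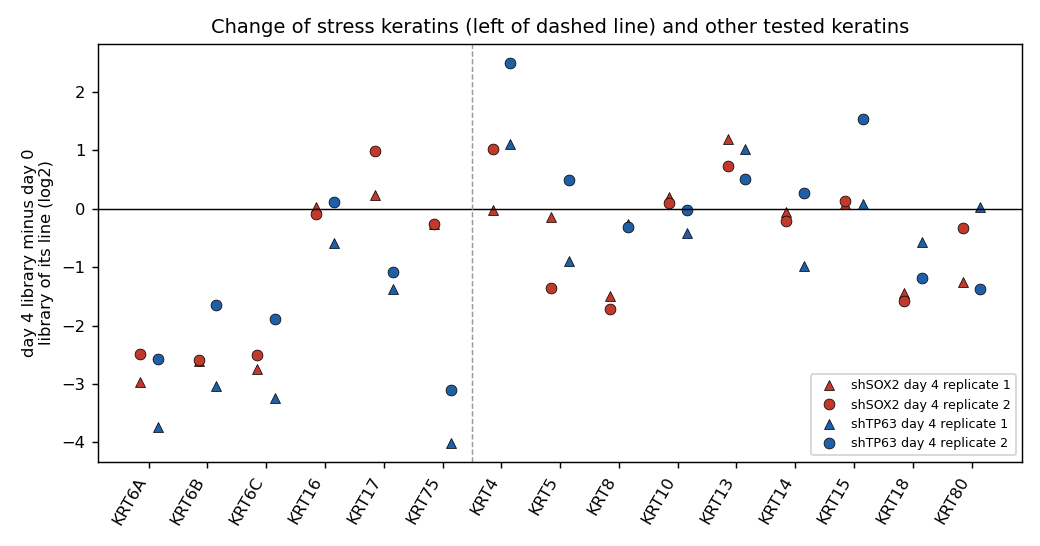
Day 4 library minus the day 0 library of the same line, in log2 units, for the 6 stress keratins (left of the dashed line) and the 9 other tested keratins. Red is the shSOX2 line and blue the shTP63 line, triangles are replicate 1 and circles replicate 2. The keratin 6 genes lie between -3.73 and -1.65 in all 4 libraries. Of the 9 other keratins, KRT8 and KRT18 also lie below 0 in all 4 libraries, and the rest do not.

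Between the induced lines 7 of the 9 other keratins were higher in both shTP63 libraries than in both shSOX2 libraries, at a median log2 difference of 1.06 over the 9, against 0.05 over all tested genes. Over all tested genes 30.5% were higher in this way. Limma passed 0 of the 9, with 7 at an unadjusted p under 0.05, against 23% of tested genes. KRT80, a type II chain, differed by 1.59 ± 0.49 (limma adjusted p = 0.137), KRT4 by 1.52 ± 0.50 (0.149) and KRT14 by 1.35 ± 0.39 (0.127). Leaving out shTP63 day 4 replicate 2 brought KRT80 past the threshold (limma adjusted p = 0.0334), and leaving out shTP63 day 4 replicate 1 did so for KRT4 (0.0231) and KRT14 (0.0148). KRT14 was at 1.46 and 2.70 in induced shTP63 cells, against 0.81 and 0.66 in induced shSOX2 cells. In uninduced cells KRT14 was already at 2.44 in the shTP63 line, against 0.88 in the shSOX2 line. KRT80 was likewise higher before induction, at 3.17 in uninduced shTP63 cells, against 1.71 in uninduced shSOX2 cells. For KRT4 the uninduced values were 0.87 in the shTP63 line and 0.65 in the shSOX2 line.

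Genes that accompany stress keratins in activated and wound-edge keratinocytes differed widely in level. Of the 35 listed, 13 were tested, as were 10536 of all 48644 genes. S100A7, S100A8, S100A9, PLAU and MMP9 had a mean below 0.05 RPKM, while LAMB3 had one of 106 RPKM and CD44 one of 49.7 RPKM. These genes were named after their values were seen. Below the filter, SPRR1A, SPRR1B, SPRR2A, SPRR2B, SPRR2D and HBEGF were lower than day 0 in all 4 induced libraries, at a mean under 1 RPKM. The share of all genes below the filter that were lower in all 4 was not computed, so this set has no background. No listed gene below the filter was higher than day 0 in all 4. Such genes were not tested and do not enter the medians and counts that follow. None of the 13 passed limma in any contrast. In the shSOX2 line their median log2 change was 0.02, with 4 higher and 4 lower in both induced libraries, against 33.3% and 40.2% of all tested genes. PI3, the protease inhibitor elafin, had a change of -1.50 ± 0.61 (limma adjusted p = 0.463), the laminin chain LAMA3 one of -0.89 ± 0.31 (0.431) and the cytokine IL1A one of 0.99 ± 0.30 (0.405). In the shTP63 line the median was -0.33, with 1 higher and 7 lower in both induced libraries, against 37.9% and 38.5% of all tested genes. The EGFR ligand AREG had a log2 change of -2.16 ± 0.67 (limma adjusted p = 0.224) and the matrix protein TNC one of 0.96 ± 0.70 (0.563). Between the induced lines the median was -0.59, and PI3 differed by 1.57 ± 0.49 (limma adjusted p = 0.140) and LAMB3 by -1.25 ± 0.31 (0.100). Without shTP63 day 4 replicate 1, PI3 passed (limma adjusted p = 0.0438).

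Transcription factors reported to act on stress keratin promoters formed a list of 24, of which 22 were tested. FOSL1, an AP-1 subunit, was at 1.46 and 1.48 in induced shTP63 cells, against 5.38 in uninduced cells, a log2 change of -3.91 ± 0.32 that passed (limma adjusted p = 0.0317). In induced shSOX2 cells FOSL1 was at 2.61 and 2.79, against 4.49 in uninduced cells, a log2 change of -1.79 ± 0.32 that did not pass (limma adjusted p = 0.294). On the same list JUN, KLF4, MYC, RELA, ETS1, TFAP2C, SOX2 and, below the filter, FOSB were lower than day 0 in both induced libraries of each line. In the other direction, JUNB, JUND, FOSL2 and MAFG were higher than day 0 in both induced libraries of each line. Of all tested genes, 40.2% were below day 0 in both induced shSOX2 libraries and 38.5% in both induced shTP63 libraries. The share of tested genes below day 0 in both lines at once was not computed. For FOSL1, as for the keratin 6 genes, the day 0 library likewise stood above both day 4 libraries in each line. The call in the shTP63 line was lost without shSOX2 day 4 replicate 1 (limma adjusted p = 0.226) or replicate 2 (0.226), with the 3 libraries of the line alone (0.21), without the filter (0.101) and when the replicate number was a block (0.155). Its log2 change lay between -3.91 and -3.86 in these settings.

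JUN, another AP-1 subunit, had a log2 change of -1.53 ± 0.43 in the shTP63 line (limma adjusted p = 0.195), and KLF4, a factor of suprabasal differentiation, one of -1.35 ± 0.57 in the shSOX2 line (0.481). Over the list the median log2 change was -0.18 in the shSOX2 line and 0.01 in the shTP63 line. In both induced shSOX2 libraries 8 were higher and 12 lower, against 33.3% and 40.2% of all tested genes. In both induced shTP63 libraries 8 were higher and 10 lower, against 37.9% and 38.5%. Between the induced lines TP63, the hairpin target and itself on the list, was the member that passed (log2 difference -1.73 ± 0.26, limma adjusted p = 0.0467). That call was lost when either shSOX2 day 4 library or shTP63 day 4 replicate 2 was left out (limma adjusted p 0.0698 to 0.235), without the filter (0.372), with a pseudocount of 5 (0.0624) and when the replicate number was a block (0.0667). FOSL1 differed by -1.23 ± 0.26 (limma adjusted p = 0.0838). JUNB, an AP-1 subunit on the other side, was at 4.81 and 5.32 in induced shTP63 cells, against 3.26 and 3.36 in induced shSOX2 cells, a difference of 1.75 ± 0.30 (limma adjusted p = 0.0552, and 0.0238 without shTP63 day 4 replicate 1).

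Proteins that bind or anchor keratin filaments, 14 genes all of which were tested, had medians near 0. Their median log2 change was 0.00 in the shSOX2 line and -0.07 in the shTP63 line, and the median difference between the induced lines was -0.03, with 0 passing limma in each. The cytolinker gene PLEC had a log2 change of -1.19 ± 0.43 in the shTP63 line (limma adjusted p = 0.271) and TCHP, which encodes trichoplein, one of -1.01 ± 0.32 (0.233). JUP, the plakoglobin gene of desmosomes, had one of 0.80 ± 0.36 there (limma adjusted p = 0.360). In the shSOX2 line SFN, a 14-3-3 protein gene of squamous cells, had a log2 change of -0.80 ± 0.34 (limma adjusted p = 0.481), EPPK1, which encodes epiplakin, one of 0.73 ± 0.39 (0.544) and HNRNPK one of -0.61 ± 0.41 (0.613). Between the induced lines PLEC differed by -0.86 ± 0.35 (limma adjusted p = 0.198), EPPK1 by -0.81 ± 0.32 (0.189) and the envoplakin gene EVPL by -0.68 ± 0.29 (0.213).

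Of 6 listed fibroblast markers 2 were tested, COL3A1 and COL1A1, and neither passed limma in either line (adjusted p 0.137 to 0.607). The summed level of the 6 was 158 and 29.6 RPKM in induced shSOX2 cells, against 10.3 RPKM in uninduced cells, and 58.8 and 93.0 RPKM in induced shTP63 cells, against 5.27 RPKM in uninduced cells. COL3A1 and COL1A1 carried this sum and were above day 0 in all 4 induced libraries. The other listed markers, DCN, LUM, COL1A2 and PDGFRA, were at or near 0 in every library. The part of this difference in the keratin 6 values was not tested. Columnar markers summed to between 0.715 and 1.89 RPKM. In bulk RNA fewer cells with keratin 6 and less keratin 6 RNA per cell cannot be told apart.

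The genes whose values were most like those of a member were sought among 5104 tested genes with a range of at least 1 log2 unit, by Pearson r over the 6 libraries, as a description. For KRT6A they were SURF2 (r = 0.997), RP1-117B12.4 (0.986) and SRSF2 (0.984). For KRT6C they were SURF2 (0.997), RP1-117B12.4 (0.987) and TFPT (0.986), and for KRT6B SURF2 (0.993), TFPT (0.989) and KLF6 (0.983). SURF2 was at 2.72 and 2.96 in induced shSOX2 cells, against 4.34 in uninduced ones, and at 2.62 and 3.37 in induced shTP63 cells, against 4.56 in uninduced ones. For KRT75 they were RP11-1020M18.10 (0.995), RAPGEF6 (0.971) and AC005000.1 (0.970), all highest in the uninduced shTP63 library. RP11-1020M18.10 was at 0.06 and 0.43 in induced shTP63 cells, against 2.82 in uninduced ones, and at 0.12 or below in the shSOX2 line. For KRT17 they were FAM100A (0.957), DRD2 (0.941) and FAM195B (0.920). KRT16 had a range below 1 and was left out. With 6 libraries and 5104 genes compared, high r values arise readily.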

How the data were processed

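Poly(A) RNA was sequenced from 6 KYSE70 libraries. The authors deposited 1 table, named as RPKM. The deposited values were taken to be log2(RPKM + 1) made by the authors, base 2 being an assumption, and quantile-normalized, since all 6 libraries share a highest value of 13.4. The submitters' processing notes name hg19. For aligner and counter, no name was given. No step that keeps strand is stated in the labels' protocols. Depth cannot be recovered from such values. Genes with a mean of at least 1 RPKM were tested (10536 of 48644). Limma 3.58.1 in R 4.3.3 was fitted to 4 group means with a trend of variance on level and 2 residual degrees of freedom, two-sided, with Benjamini-Hochberg adjustment over all tested genes and a call under 0.05. Errors after ± are limma standard errors, and each day 0 group, having 1 library, took its spread from the day 4 pairs. The fit was tested on simulated data.

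Members and lists were chosen with earlier results of these data known. Named were the members, both targets and, per list and contrast, genes that passed and the 3 largest changes shared by both day 4 libraries (between the induced lines, groups that did not overlap). A gene that this rule names is not reported here. Gene order and promoters are from RefSeq (GRCh38.p14) and shared windows from GENCODE 29, so no hg19 coordinates are given. Alternatives varied the filter, pseudocount, scaling, replicate block, control and libraries.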

Additional observations from a re-analysis of the deposited data

Results flagged for a closer look

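KRT17 moved in opposite directions in the lines, lower in both induced shTP63 libraries and higher in both induced shSOX2 libraries than in the day 0 library of the line. The difference of the mean changes, shTP63 minus shSOX2, was -1.85 log2 units. The difference was not tested, because the gene was below the filter, and KRT17 was listed at 0 in uninduced shSOX2 cells.

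TP63 was lower in both induced shTP63 libraries and higher in both induced shSOX2 libraries, a difference of changes of -2.12. IL1A differed from day 0 by -0.29 and -0.02 in induced shTP63 libraries and by 1.15 and 0.83 in induced shSOX2 libraries, a difference of -1.15. Opposite directions in all 4 induced libraries were seen in 14.3% of tested genes, and other listed genes shared them. The difference was not tested for a single gene apart from the fit over all genes, where limma passed 0 of 10536 genes for the difference of the responses (479 at an unadjusted p under 0.05).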

How the results depend on the processing

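The log2 changes of KRT6A, KRT6B and KRT6C stayed below 0 under every alternative run in both lines, from -3.08 to -2.03 in the shSOX2 line and from -3.73 to -1.65 in the shTP63 line over the planned ones. With the day 0 library of the other line as the control, chosen after seeing the data, they were from -3.43 to -2.77 and from -2.45 to -2.16, and KRT75 was at 0.13 in the shTP63 line, against -3.56 with its own control. With KRT6A, KRT6B and KRT6C summed, the changes matched KRT6A within the spread of replicates.

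Counts of genes that passed limma depended on the processing. Between the induced lines, 80 passed, against 25 with no filter, 44 at a mean of at least 5 RPKM, 30 with a pseudocount of 5 and 18 with the replicate block. In the shSOX2 line, 0 passed, against 1090 with no filter, 1 with a pseudocount of 5, 2 with both day 0 libraries as the control, 11 with the 3 libraries of the line and 4 with the other line's control. In the shTP63 line, 2 passed, against 37 with no filter, 1 at a mean of at least 5 RPKM, 0 with the replicate block, 291 with both day 0 libraries, 0 with the 3 libraries of the line and 49 with the other line's control. For the difference of the responses, 0 passed, against 1193 with no filter. When each day 4 library was left out in turn, the counts ranged from 0 (without either shSOX2 library) to 324 (without shTP63 replicate 1) between the induced lines, from 0 to 11 in the shSOX2 line, from 0 to 80 in the shTP63 line and from 0 to 5 for the difference of the responses. The lone library left in an arm was then assumed to vary like the other pair. The cause of these shifts was not tested. The titles' numbers share no stated culture or day, and the day 4 differences between numbers 2 and 1 correlated at -0.0738 between the lines over tested genes, so they were not used as pairs. The depth behind the values is unknown.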
